A study of Mus musculus with 15 samples.

Results

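Kupffer cells, the resident macrophages of the liver, were followed through 8 genes that mark them, Clec4f, Vsig4, Timd4, Cd5l, Marco, Adgre1, Csf1r and Cd68. The genes were chosen by name, as a list of markers of liver macrophages, and matched to the Ensembl gene identifiers of the count table. They are 8 of 55450 genes counted, and all 8 were among the 15808 genes that passed the filter on low counts. RNA was sequenced from the liver of 15 female C57BL/6 mice, with 1 library per mouse and groups of 5. The labels give an age of 6 months for the group named Adult (A1 to A5) and of 22 months for the group named Old (O1 to O5), and both were given vehicle (corn oil). The third group, PDX (P1 to P5), also has an age of 22 months and was given protectin DX, a lipid mediator derived from docosahexaenoic acid, every day by gavage (30 ng/g of body weight). By the study's methods these are ages at the start, and livers were taken at the end, so the mice were some months older by then. The Old and PDX mice are together called aged mice here. The treatment lasted 9 weeks by the sample labels and 8 weeks by the description of the series. No group of young mice received protectin DX, so a comparison of PDX with Adult mice holds a difference of age and a difference of treatment that cannot be told apart.

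Kupffer cells line the sinusoids of the liver, where they take up particles, bacteria, dying cells and aged red blood cells from the portal blood. Most are seeded before birth and renew themselves in place. When they are lost, monocytes from the blood enter the empty niche and acquire most of the Kupffer cell program within days to weeks, whereas Timd4 is gained late and is therefore often used to tell long-resident cells from recent arrivals. Sinusoidal endothelium and stellate cells supply the signals that hold the program in place, and PU.1, the macrophage factor encoded by Spi1, works with liver X receptor alpha (Nr1h3) and Id3 at many of its genes.

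The members fall into 3 kinds by role. Clec4f, a lectin that binds galactose-containing glycans, and Vsig4, the complement receptor CRIg that captures opsonized bacteria, are largely restricted to Kupffer cells among liver cells. Timd4 (a receptor for phosphatidylserine on dying cells), Cd5l (a secreted scavenger protein also called AIM) and Marco (a scavenger receptor for bacteria and particles) are shared with resident macrophages of some other tissues. Adgre1 encodes the F4/80 antigen, Csf1r the receptor for the growth factors CSF1 and IL-34, and Cd68 a lysosomal membrane glycoprotein, and all of these mark macrophages and monocyte-derived cells more broadly. The genes lie at chr6:83644542-83656187 (Clec4f, minus strand), chrX:96247203-96293438 (Vsig4, minus), chr11:46810800-46844332 (Timd4, plus), chr3:87357881-87371073 (Cd5l, plus), chr1:120474538-120505024 (Marco, minus), chr17:57358691-57483527 (Adgre1, plus), chr18:61100598-61132149 (Csf1r, plus) and chr11:69664213-69666153 (Cd68, minus) of GRCm38. All 8 are annotated as protein-coding genes.

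The promoters of Vsig4 and Cd5l are printed because these genes moved closely together across the livers other than O2 (Pearson's r of log2 CPM 0.98 over 14 mice, 0.82 with O2), and those of Marco and Timd4 because they departed from the rest. Each line gives the 250 bases before the start of the gene in RefSeq (GRCm38.p6), from 5′ to 3′ on the strand of the gene. Capitals mark GAGGAA, the core of a PU.1 site, or its reverse complement TTCCTC. The motif holds the GGAA core shared by all ETS factors, and both strands were searched. The windows lie at chrX:96293439-96293688 (Vsig4, minus), chr3:87357631-87357880 (Cd5l, plus), chr1:120505025-120505274 (Marco, minus) and chr11:46810549-46810798 (Timd4, plus).

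Vsig4: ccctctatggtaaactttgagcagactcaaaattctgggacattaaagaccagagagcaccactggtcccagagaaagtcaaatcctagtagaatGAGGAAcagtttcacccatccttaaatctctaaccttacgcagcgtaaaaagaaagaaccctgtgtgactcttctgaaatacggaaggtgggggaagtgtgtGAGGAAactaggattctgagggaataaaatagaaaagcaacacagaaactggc
Cd5l: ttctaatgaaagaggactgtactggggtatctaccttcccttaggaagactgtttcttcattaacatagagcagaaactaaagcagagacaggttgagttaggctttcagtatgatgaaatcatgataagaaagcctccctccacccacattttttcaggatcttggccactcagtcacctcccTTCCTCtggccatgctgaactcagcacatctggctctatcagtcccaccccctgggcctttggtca
Marco: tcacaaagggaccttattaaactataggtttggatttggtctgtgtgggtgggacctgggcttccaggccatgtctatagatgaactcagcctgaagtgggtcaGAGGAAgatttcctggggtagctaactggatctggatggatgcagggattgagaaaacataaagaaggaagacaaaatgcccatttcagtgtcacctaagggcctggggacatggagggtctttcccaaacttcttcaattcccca
Timd4: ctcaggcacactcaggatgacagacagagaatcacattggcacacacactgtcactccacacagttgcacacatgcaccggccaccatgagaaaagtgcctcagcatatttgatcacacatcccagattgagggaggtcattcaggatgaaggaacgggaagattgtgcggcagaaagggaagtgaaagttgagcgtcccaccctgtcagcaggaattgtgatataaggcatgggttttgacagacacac

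Vsig4 held GAGGAA at 155 and at 53 bases before the start, Marco at 146 bases, and Cd5l held the reverse complement at 66 bases. Timd4 held neither form in its window. A promoter entry was given for 6 of the 8 members, and 4 of those 6 held the motif, the Cd68 promoter at 225 bases before the start. Over all 32851 promoters of the same length, 23.3% held it. A match of 6 bases describes the window and does not show binding.

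Depth was similar in the groups. Between 22.4 and 36.1 M read pairs were counted per liver in the Adult group (median 29.6 M), between 25.5 and 29.1 M in the Old group (median 26.6 M) and between 26.1 and 30.1 M in the PDX group (median 28.7 M). Counts behind a value of a member ranged from 63 (Timd4 in O5) to 36264 (Clec4f in O2), and counting error is small beside the spread between mice. Libraries O2 and O5 stood apart. The library of O2 had a TMM scaling factor of 1.33, where the other libraries lay between 0.884 and 1.08, and limma gave O2 and O5 quality weights of 0.139 and 0.0716, where the other libraries lay between 0.448 and 2.70. Hepatocyte genes were abundant in every library. The summed CPM (counts per M counted pairs, TMM-scaled) of 8 of them was 130084 to 143240 in the Adult mice. In the aged mice other than O2 and O5 it was 111902 (P2) to 204516 (O1), beyond the Adult range on both sides. The sum was lowest in O2 (78454) and O5 (63254), though some of the 8 genes were higher in O5 than in any other mouse. The comparisons of the members are therefore given with all mice and without O2, and other results without O2, or without O2 and O5, where a call named here changed. The RNA is from whole liver, so more Kupffer cells and more RNA per Kupffer cell cannot be told apart. The p-values measure the spread between the mice sequenced here.

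Per length of exon sequence, the secreted protein gene and the lectin led in every group. In the Adult livers, median levels in CPM per kb of exon were 95.4 for Cd5l, 80.6 for Clec4f, 39.2 for Vsig4, 17.3 for Csf1r, 11.3 for Adgre1, 11.2 for Cd68, 7.20 for Marco and 5.96 for Timd4. Among neighbours in this order, Cd5l and Clec4f overlapped, as did Adgre1, Cd68 and Marco, and Marco also overlapped Csf1r and Timd4, while the other neighbours did not overlap over the 5 mice. In the PDX livers, the medians were 249.5 CPM per kb for Cd5l, 125 for Clec4f, 73.4 for Vsig4, 38.8 for Csf1r, 31.4 for Marco, 23.0 for Cd68, 22.6 for Adgre1 and 5.73 for Timd4. Marco thus stood above Adgre1 and Cd68 by its median in the PDX livers and below both in the Adult livers. In the Old livers, medians were 118 CPM per kb for Cd5l and 89.4 for Clec4f, with Timd4 last at 3.87. The Old median of Marco (20.0) stood above those of Cd68 (17.6) and Adgre1 (10.3), but it was the value of O2. Within O1, O2 and O4, Marco lay below both genes, in O2 at 20.0 against 95.7 for Cd68 and 66.5 for Adgre1. Without O2 and O5 the Old median of Marco was 6.99.

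**Figure D1:**
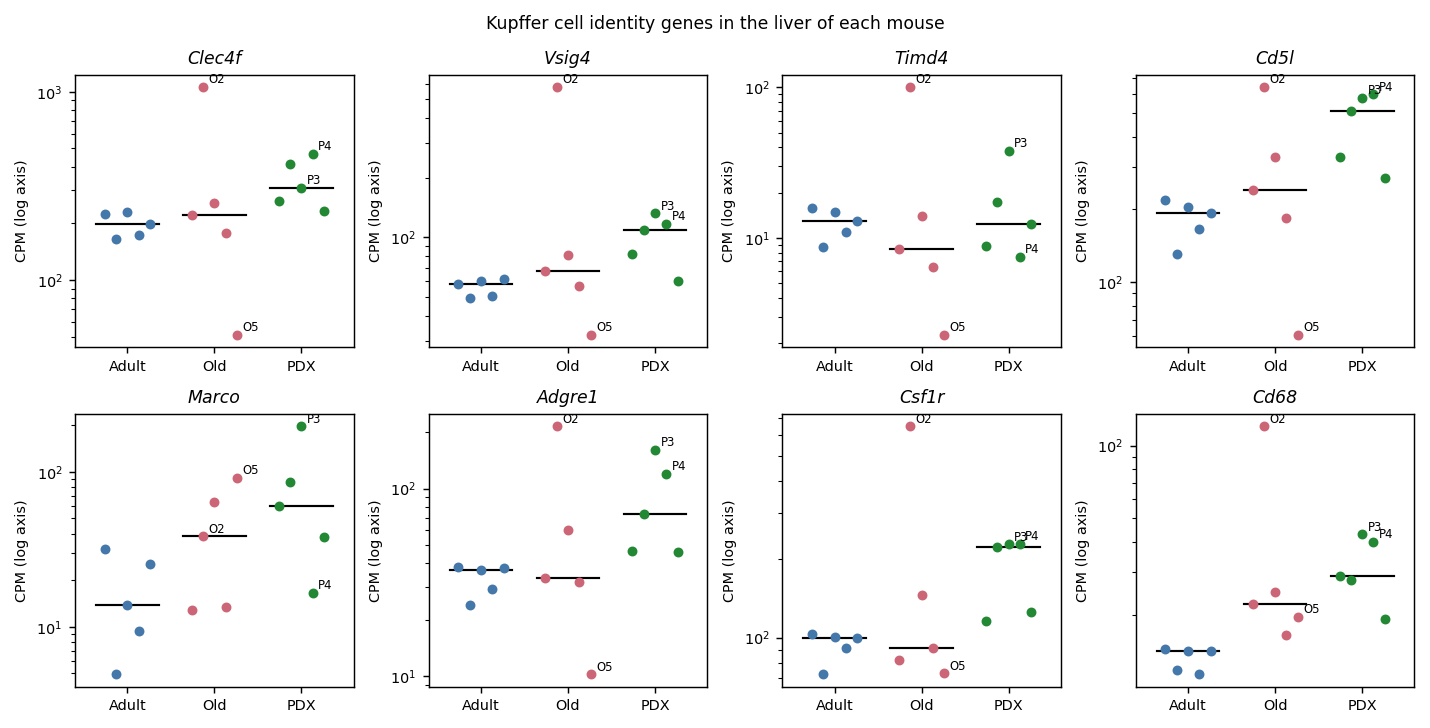
Level of each of the 8 genes in the liver of each mouse, in TMM-scaled counts per M on a log axis, with 1 point per mouse (5 per group) and a black line at the group median. O2 is the highest mouse of all 15 for every gene but Marco, O5 is the lowest for Clec4f, Vsig4, Timd4, Cd5l and Adgre1, and the PDX points lie wholly above the Adult points for Clec4f, Cd5l, Adgre1, Csf1r and Cd68.

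The Kupffer-restricted genes came first. Clec4f was at 224, 164, 229.5, 174 and 199 CPM in A1 to A5, at 221, 1061, 257, 178 and 51.0 CPM in O1 to O5, and at 263, 414, 309, 467 and 234 CPM in P1 to P5. The Old group held both the highest and the lowest liver of the study, O2 and O5, and its other 3 mice lay within or just above the Adult range. All PDX mice lay above all Adult mice. For Clec4f the log2 fold change was 0.83 ± 0.54 (SE) in Old over Adult, -0.07 ± 0.54 in PDX over Old and 0.77 ± 0.54 in PDX over Adult, and none of the 3 passed the threshold (edgeR quasi-likelihood, adjusted p = 0.333, 0.980 and 0.447).

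Vsig4 was at 58.2, 49.0, 59.9, 50.3 and 61.8 CPM in A1 to A5, at 67.5, 576, 81.8, 56.6 and 32.0 CPM in O1 to O5, and at 82.3, 109, 132, 117 and 60.2 CPM in P1 to P5. O2 was far above all other mice and O5 the lowest, and of the PDX mice only P5 lay inside the Adult range. Log2 fold changes were 1.54 ± 0.61 (SE) in Old over Adult and 0.84 ± 0.60 in PDX over Adult (edgeR, adjusted p = 0.119 and 0.459).

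Among the scavenger genes, Cd5l separated the PDX from the Adult livers. It was at 219, 131, 205, 166 and 194 CPM in A1 to A5, at 239.9, 641, 330.2, 184 and 60.6 CPM in O1 to O5, and at 329, 508, 577, 599 and 271 CPM in P1 to P5. The lowest PDX liver lay above the highest Adult liver, and the Old group spanned both. PDX exceeded Adult by 1.32 ± 0.44 (SE) on the log2 scale, which did not pass the threshold with all mice in the fit (edgeR, adjusted p = 0.116).

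Timd4 took another course. It was at 15.7, 8.77, 14.8, 10.9 and 12.9 CPM in A1 to A5, at 8.41, 100.3, 14.0, 6.46 and 2.27 CPM in O1 to O5, and at 8.80, 17.2, 38.0, 7.50 and 12.5 CPM in P1 to P5. Apart from O2, the Old mice lay within or below the Adult range, and only P2 and P3 of the PDX mice lay above it. The log2 fold change of PDX over Adult, 0.41 ± 0.77 (SE), was the smallest among the members (edgeR, adjusted p = 0.817).

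Marco had the widest range for its level in the Adult and PDX groups, though not in the Old group. It was at 31.9, 4.93, 13.9, 9.33 and 25.4 CPM in A1 to A5, at 12.9, 38.5, 63.5, 13.4 and 91.3 CPM in O1 to O5, and at 60.5, 86.1, 197, 16.6 and 37.7 CPM in P1 to P5. Here O2 did not lead, O5 was the highest Old mouse, and P4, high for most other members, was the lowest PDX mouse. The log2 fold change of PDX over Adult, 2.22 ± 0.70 (SE), was the largest among the members (edgeR, adjusted p = 0.101).

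Of the broader macrophage genes, Adgre1 was at 38.4, 23.9, 36.7, 29.0 and 37.5 CPM in A1 to A5, at 33.5, 215, 59.9, 31.7 and 10.2 CPM in O1 to O5, and at 46.7, 73.1, 161, 120.0 and 45.9 CPM in P1 to P5. Csf1r was at 103, 72.3, 100.4, 91.5 and 99.7 CPM in A1 to A5, at 81.9, 649, 146, 90.9 and 73.0 CPM in O1 to O5, and at 116, 224, 229, 229 and 125 CPM in P1 to P5. For both, all PDX mice lay above all Adult mice, and the Old mice other than O2 and O3 lay within or below the Adult range. PDX exceeded Adult by 1.43 ± 0.61 (SE) for Adgre1 and by 0.98 ± 0.52 for Csf1r on the log2 scale (edgeR, adjusted p = 0.197 and 0.292).

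Cd68 was the one member in which the Old and Adult groups did not overlap. It was at 14.4, 11.8, 14.2, 11.3 and 14.1 CPM in A1 to A5, at 22.1, 120.3, 24.8, 16.4 and 19.6 CPM in O1 to O5, and at 28.9, 27.8, 42.9, 40.0 and 19.2 CPM in P1 to P5. Every aged mouse, treated or not, lay above every Adult mouse. Cd68 exceeded the Adult level by 1.63 ± 0.47 (SE) in the Old group and by 1.27 ± 0.47 in the PDX group on the log2 scale (edgeR, adjusted p = 0.0517 and 0.145). With the Wald test of DESeq2 on all mice, Cd68 passed the threshold in Old over Adult.

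Comparing Old with Adult mice addresses the change of these genes with age. With all mice, 0 of 8 members passed an adjusted p of 0.05 in edgeR, where 6.78% of all genes tested did, and 3 members (Vsig4, Csf1r and Cd68) were higher at an unadjusted p under 0.05, where 17.9% of all genes were. DESeq2 called 1 member higher, Cd68, where 9.62% of all genes were called higher. It gave no adjusted p for Vsig4. All 8 fold changes were positive, as were 56.8% of all genes, and their median was 1.12 on the log2 scale, against 0.07 over all genes. Members whose groups did not overlap numbered 1 of 8 (Cd68), where 3.65% of all genes lay wholly above the Adult mice. Most of the difference rested on O2. Without it, the median of the members was 0.09 against 0.05 over all genes, the signs of Clec4f (-0.16) and Timd4 (-0.69) turned, and only Cd68 (0.66 ± 0.20 SE) still was higher at an unadjusted p under 0.05 (edgeR, adjusted p = 0.0766), where 14.4% of all genes were and 3.38% were called higher after adjustment. Without O5 in place of O2, Vsig4 and Cd68 passed the threshold in edgeR, where 8.66% of all genes were called higher.

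Comparing PDX with Old mice addresses the treatment at the same age. Here 0 of 8 members passed the threshold, and 0 of all 15808 genes did (0% at 0.05, and none at the 0.25 that the study set for this comparison). In edgeR 0 members and 834 of all genes (5.28%) had an unadjusted p under 0.05, of which 165 genes (1.04% of all) were higher, and DESeq2 called 1 gene, not a member. The fold changes of 3 members were positive, where 40.1% of all genes had positive ones, those of Cd5l (0.65 ± 0.44 SE), Marco (0.86 ± 0.68) and Adgre1 (0.35 ± 0.60), and those of the other 5 negative, with a median of -0.12 against -0.07 over all genes. No member lay wholly above or wholly below the Old mice, where 0.145% of all genes lay wholly above and 0.196% wholly below. Without O2, all 8 were positive, with a median of 0.92 against -0.03 over all genes. Adgre1 (1.40 ± 0.45 SE), Cd5l (1.16 ± 0.38) and Timd4 (1.10 ± 0.50) then differed most. Then 7 of 8 members were higher at an unadjusted p under 0.05, where 5.45% of all genes were, and still 0 of 8 members and 0% of all genes passed the threshold (edgeR, adjusted p from 0.297 to 0.707). DESeq2 without O2 called 104 genes and 0 members. For 5 of the 8 members the sign of the difference thus turned when O2 was left out. That of Clec4f also turned without P1 (0.011) and without P5 (0.041).

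The Old mice enter the comparison of PDX with Adult mice through the shared estimate of the spread, the filter on low counts and the scaling. With all mice in the fit, 0 of 8 members passed the threshold, where 2.66% of all genes did, and 4 (Cd5l, Marco, Adgre1 and Cd68) were higher at an unadjusted p under 0.05, where 11.2% of all genes were. DESeq2 called Cd5l and Marco higher, where 4.53% of all genes were called higher. All 8 fold changes were positive, as were 48.4% of all genes, and their median was 1.13, against -0.01 over all genes. In 5 of 8 members (Clec4f, Cd5l, Adgre1, Csf1r and Cd68) every PDX mouse lay above every Adult mouse, where 10.5% of all genes did. Without O2, the fold changes stayed within 0.01 of those given and 5 of 8 members passed the threshold, Vsig4 (0.85 ± 0.24 SE, adjusted p = 0.0362), Cd5l (1.32 ± 0.36, 0.0298), Adgre1 (1.44 ± 0.42, 0.0411), Csf1r (0.99 ± 0.24, 0.0166) and Cd68 (1.28 ± 0.19, 0.00176), in edgeR's test, where 7.76% of all genes were called higher. Marco had an adjusted p of 0.0619 in that edgeR fit and Clec4f one of 0.155. Without O2 and O5, and also with only the PDX and Adult mice in the fit, 7 of 8 were called higher, all but Timd4, where 14.4% and 16.1% of all genes were called higher.

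**Figure D2:**
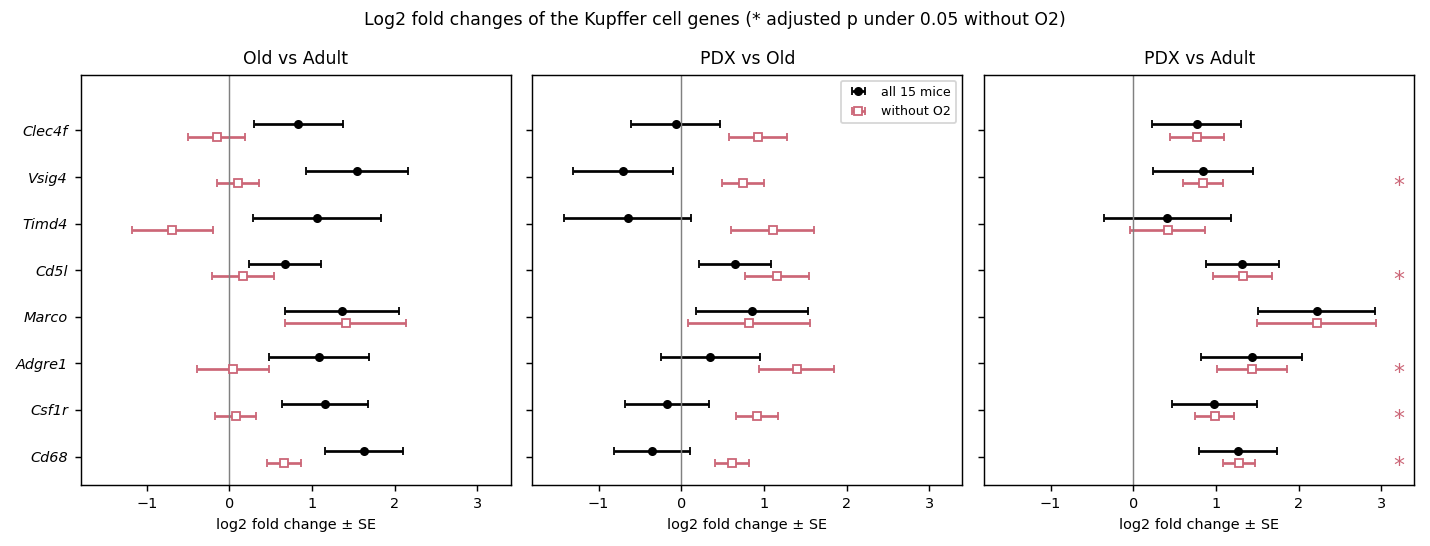
Log2 fold change of each gene with its standard error in the 3 comparisons, from edgeR, with all 15 mice (filled circles) and without O2 (open squares). A star marks an adjusted p under 0.05 without O2, and no gene passed with all 15 mice. Without O2 the Old over Adult values of most members fall to near 0, all 8 PDX over Old values lie above 0, and the PDX over Adult values keep their place with shorter error bars.

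The ratio of an identity gene to Adgre1 within the same library does not depend on library scaling and asks whether the genes moved in proportion. Log2 ratios of Timd4 to Adgre1 were -1.29, -1.44, -1.31, -1.40 and -1.53 in A1 to A5, -1.99, -1.10, -2.09, -2.29 and -2.16 in O1 to O5, and -2.40, -2.09, -2.08, -4.00 and -1.88 in P1 to P5. Every PDX mouse lay below every Adult mouse, and so did every Old mouse except O2. The mean difference was -1.10 in PDX against Adult (exact two-sided permutation test, p = 0.00794, the smallest that 5 against 5 mice allow) and -0.53 in Old against Adult (exact p = 0.0476). Adjusted over 15 ratio tests, these were 0.119 and 0.167 in the exact test, so neither passed 0.05. A single ratio at the smallest possible p adjusts to 0.119 here, so it could not pass on its own. That none passed does not show equal ratios. Without O2, all remaining Old mice lay below all Adult mice (-0.74, exact permutation p = 0.0159), and again 0 of 15 ratios to Adgre1 passed after adjustment (adjusted p = 0.119 for Timd4 in both comparisons with Adult mice).

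The other ratios to Adgre1 overlapped between all groups. Clec4f to Adgre1 was lower by 0.54 on average in PDX than in Adult mice (log2 means 2.05 and 2.59, exact permutation p = 0.0397, adjusted p = 0.167), with P3 (0.94) and P4 (1.96) lowest. Vsig4 to Adgre1 had a mean of 0.29 in PDX and 1.07 in Old mice (exact permutation p = 0.0317, adjusted p = 0.167). Cd5l kept nearly the same mean ratio to Adgre1 in all groups, at 2.47 in Adult, 2.40 in Old and 2.47 in PDX mice. Single mice departed from it, with O2 (1.58) and P3 (1.84) lowest, and the SD was 0.06, 0.48 and 0.40 in the same order. Marco to Adgre1 ranged from -2.85 (P4) to 3.16 (O5), wider than any other ratio.

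With Cd68 as the denominator, more ratios differed. Cd68 itself was higher in every aged than in every Adult mouse, so a lower ratio to it need not mean a lower numerator. With all mice, the log2 fold changes in Old over Adult were positive for Clec4f (0.83), Vsig4 (1.54) and Timd4 (1.06). With Csf1r as the denominator no ratio passed (exact permutation, lowest adjusted p = 0.119, for Cd5l in PDX against Adult mice). Clec4f to Cd68 was lower in every Old than in every Adult mouse, by 0.98 on average (exact permutation p = 0.00794, adjusted p = 0.0476), and Timd4 to Cd68 by 1.30 in Old and by 1.04 in PDX against Adult mice (exact permutation, adjusted p = 0.0476 for both). Vsig4 to Cd68 was lower in every PDX than in every Adult mouse, by 0.43 on average (exact permutation, adjusted p = 0.0476). The Timd4 groups overlapped in both comparisons. Cd5l to Cd68 was higher in PDX than in Old mice, by 0.89 on average (exact permutation, adjusted p = 0.0476), but did not pass without O2 (0.76, exact permutation, adjusted p = 0.0680). Without O2 the ratios of Clec4f (-1.03), Vsig4 (-0.63) and Timd4 (-1.58) to Cd68 were lower in Old than in Adult mice (exact permutation, adjusted p = 0.0476 for all), and those of Vsig4 and Timd4 in PDX against Adult mice still passed. Without O2 and O5 no ratio to Cd68 passed (exact permutation, lowest adjusted p = 0.0893). Comparisons with Old mice then held 3 against 5 mice, which allow no exact p under 0.0357. The Vsig4 and Timd4 ratios in PDX against Adult mice hold no Old mouse and kept their exact permutation p (0.00794 and 0.0159). Only their adjustment, shared with the comparisons of Old mice, changed.

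**Figure D3:**
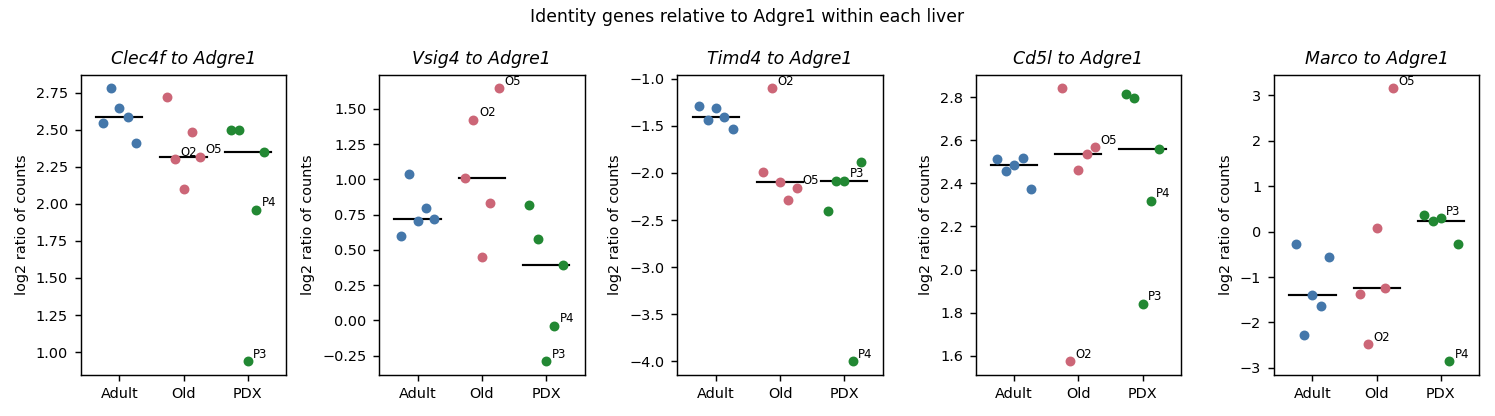
Log2 ratio of the counts of 5 identity genes to those of Adgre1 in each liver, with 1 point per mouse and a black line at the group median. Timd4 to Adgre1 is lower in all PDX mice (at most -1.88) than in all Adult mice (at least -1.53), and O2 is the single Old mouse above the Adult range.

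Across the 15 livers, 7 of the 8 members moved together and Marco did not. Pearson correlations of log2 CPM among the 21 pairs without Marco ranged from 0.622 (Timd4 with Cd68) to 0.962 (Cd5l with Adgre1), with a median of 0.842, while the 7 pairs with Marco ranged from 0.0935 to 0.487. Without O2 and O5, the pairs with Marco lay between 0.573 and 0.746. Timd4 then had the lowest value of the other pairs, 0.274 with Clec4f. The points share their library and group, so these values are a description of 15 livers.

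Among 12023 genes whose log2 CPM averaged 1 or more, 3 were named for each member, those whose levels were most like its own over the 15 mice by Pearson's r. Folr2, a folate receptor of resident macrophages, had r = 0.99 with Clec4f, followed by Ifi204 (0.98) and Samhd1 (0.97). For Vsig4 they were H2-DMb1, Clec12a and Sdcbp (all 0.98), for Csf1r Fyb, Fam129a and Pot1b (all 0.99), and for Cd68 Cyba, Ifi30 and Fermt3 (0.98 to 0.99). Cd5l and Adgre1 shared Sdc3 and Abi3 (0.97 to 0.98 for both), with P2ry13 next to Cd5l (0.97) and Treml4 next to Adgre1 (0.98). Timd4 stood nearest to the lymphocyte genes Il2rb (0.94) and Fyn (0.94) and to Plekhb2 (0.92), but without O2 to Ltbp4 (0.91), Colec11 (0.90) and Il2rb (0.89), and without O2 and O5 to P2ry14 (0.85). Marco stood nearest to Irak3 (0.84), Ltbp2 (0.82) and Spsb1 (0.81), and without O2 to Hmox1, the heme-degrading enzyme (0.93 over 14 mice).

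A second list of 14 Kupffer cell genes moved less evenly. With all mice, 0 of 14 passed the threshold in Old over Adult, and 1 of 14, Il18bp (the secreted inhibitor of interleukin 18), rose in PDX over Adult mice, by 1.34 ± 0.22 (SE) on the log2 scale (edgeR, adjusted p = 0.00566). Il18bp was between 13.6 and 17.6 CPM in the Adult mice, between 14.7 and 39.8 CPM in the Old mice and between 27.0 and 53.3 CPM in the PDX mice. In Old over Adult mice Il18bp differed by 0.69 with all mice (edgeR, adjusted p = 0.0651) and passed without O2 and O5 (0.64, adjusted p = 0.0323). In PDX over Old mice 0 of 14 passed. Without O2, 7 of 14 rose and 1 fell in PDX over Adult mice, where 7.76% of all genes were called higher and 526 of 15978 lower.

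The gene that fell was Cd163, a scavenger receptor that clears hemoglobin bound to haptoglobin, singled out here after its values were seen. Cd163 was at 16.8, 20.6, 26.4, 29.6 and 18.3 CPM in A1 to A5, at 4.16, 6.14, 6.63, 2.82 and 19.4 CPM in O1 to O5, and at 5.09, 6.66, 3.53, 13.3 and 8.29 CPM in P1 to P5. All aged mice except O5 lay below all Adult mice, O2 included. The log2 fold change was -1.51 ± 0.45 (SE) in Old and -1.60 ± 0.46 in PDX against Adult mice (edgeR, adjusted p = 0.0563 and 0.0734), and in PDX against Adult it passed the threshold without O2 (adjusted p = 0.0384 in edgeR). Without O2 and O5 Cd163 passed in both comparisons, at -2.29 in Old and -1.58 in PDX against Adult mice (edgeR, adjusted p = 0.00568 and 0.00310). Cd163 was thus low in the same treated livers in which most identity genes were high.

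O5 combined low and high Kupffer cell genes. It had the lowest Folr2 of all mice (2.81 CPM, against 14.6 to 20.8 CPM in the Adult mice). Spic, a factor induced by heme in iron-recycling macrophages, was at 9.70 CPM in O5 (Adult 1.02 to 2.04 CPM). Hmox1 was at 80.1 CPM in O5 (Adult 16.3 to 39.7 CPM). High levels of these genes were not particular to O5. Both were higher in O2 and in P3, for Hmox1 only slightly in P3. Every PDX mouse also lay above every Adult mouse for both. Xlr, the gene of this list with the largest absolute fold change in Old over Adult (log2 2.92 ± 1.16 SE, edgeR adjusted p = 0.119), rested on O2 alone, with 14.8 CPM there and at most 0.253 CPM in the other Old mice.

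**Figure D4:**
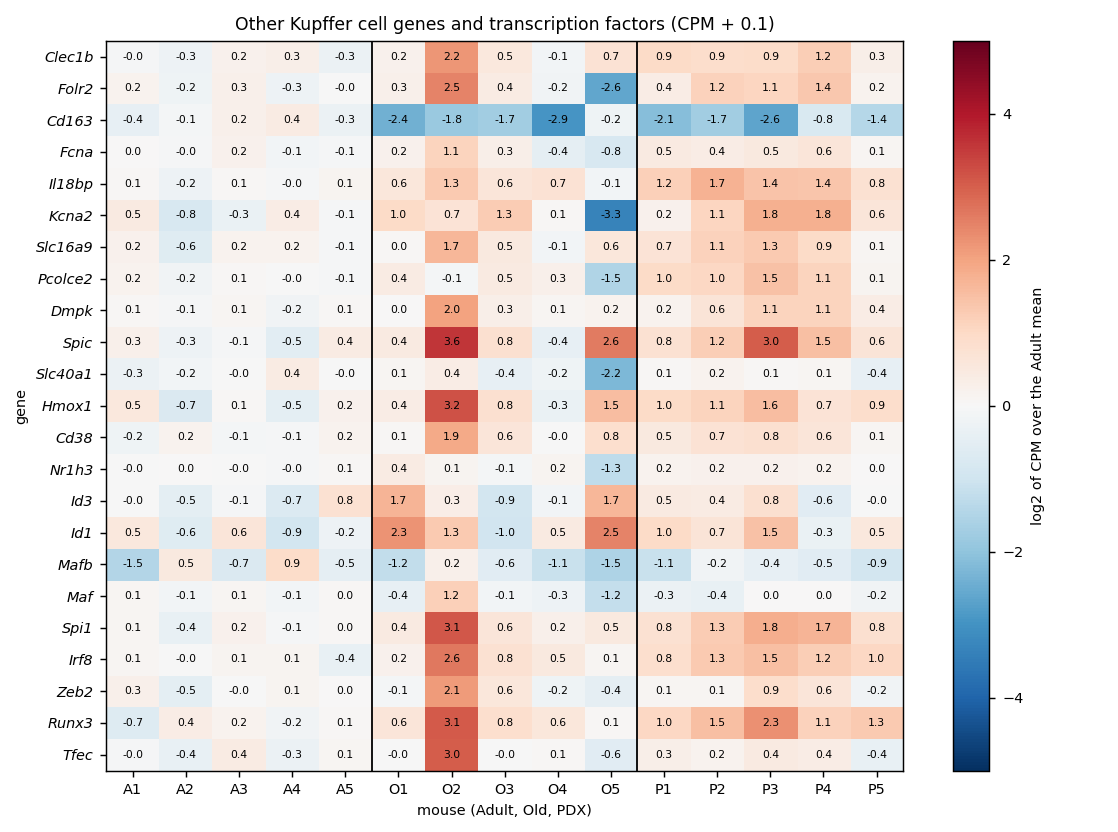
Log2 of the level (CPM + 0.1) of other Kupffer cell genes and transcription factors over the mean of the Adult mice, in each of the 15 livers, with the value in each cell, blue below and red above the Adult mean. Xlr is not drawn. Cd163 is blue in 9 of the 10 aged mice and near the Adult mean in O5, and most other genes are red in O2.

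Of the signals and factors that uphold the Kupffer cell program, few passed the threshold. Among 10 transcription factors, 0 passed in any comparison with all mice. Runx3 had the largest fold change in Old over Adult (1.69 ± 0.56 SE, edgeR adjusted p = 0.0721), and Spi1, the gene of PU.1, was between 7.05 and 10.6 CPM in the Adult mice, 10.7 and 79.6 CPM in the Old mice and 15.6 and 32.4 CPM in the PDX mice. Nr1h3 and Id3 overlapped between all groups. Nr1h3 was at 123 to 134 CPM in Adult, 52.4 to 167 CPM in Old and 127 to 149 CPM in PDX mice. Id3 was at 28.8 to 79.6, 24.3 to 153 and 31.5 to 80.2 CPM in the same order. Among 12 niche ligands and receptors, 0 passed with all mice, and Acvrl1, a receptor for BMP9 and BMP10, had the largest fold change in Old over Adult (1.68 ± 0.57 SE, edgeR adjusted p = 0.0779), again highest in O2. In PDX over Adult mice, 0 of either list had passed with all mice. Without O2, 3 of 10 factors and 2 of 12 niche genes rose in that comparison, as did 7.76% of all genes.

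Some macrophage genes outside the identity list passed the threshold with age. Of all genes, 745 of 15808 were called higher in Old over Adult with all mice, and 3.38% without O2. Among 16 complement C1q and core macrophage genes, 3 rose in Old over Adult mice, the lysosomal proteases Ctss (log2 1.81 ± 0.51 SE, edgeR adjusted p = 0.0480) and Lgmn (1.03 ± 0.26, adjusted p = 0.0310) and the Fc receptor Fcgr3 (1.65 ± 0.47, adjusted p = 0.0488), and none of these 3 passed without O2. In PDX over Adult mice, 1 of 16 rose with all mice and 15 of 16 without O2. Of all genes, 278 of 15808 were called higher in that comparison with all mice, and 7.76% without O2. Of 8 lipid-associated macrophage genes, 6 rose in Old over Adult with all mice and 5 without O2. Gpnmb, a membrane glycoprotein of lipid-laden macrophages, was at 0.143 to 0.684 CPM in the Adult mice, at 6.69 to 71.7 CPM in the Old mice and at 4.64 to 37.3 CPM in the PDX mice (Old over Adult, log2 6.28 ± 0.91 SE, edgeR adjusted p = 0.00372). Trem2, a lipid-sensing receptor, was at 0.803 to 1.02, 3.50 to 66.9 and 2.03 to 9.43 CPM in the 3 groups (log2 4.26 ± 0.82 SE, edgeR adjusted p = 0.0144, and 2.45 without O2, adjusted p = 0.00411).

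Markers of other blood-derived cells were also higher in the aged mice. Over all genes, those called higher in Old over Adult were 745 of 15808 with all mice, 3.38% without O2 and 790 of 16275 without O2 and O5. Among 12 genes of monocytes and monocyte-derived macrophages, 5 rose in Old over Adult mice (4 without O2), led by Chil3 (log2 4.67 ± 0.88 SE, edgeR adjusted p = 0.0132) and Vcan (4.02 ± 0.86, adjusted p = 0.0209). Without O2 and O5 these were 2.30 (adjusted p = 0.0215 in edgeR) and 2.00 (adjusted p = 0.0801 in edgeR). The summed CPM of this list was 73.9 to 126 in the Adult mice, 112 to 1124 in the Old mice and 205 to 580 in the PDX mice, so all PDX mice lay above all Adult mice, and none of its genes was at 0 in every mouse. In PDX over Adult mice 1 of the 12 rose with all mice and 11 without O2, where 278 of 15808 and 7.76% of all genes were called higher. Of 10 neutrophil and myeloid progenitor genes, 9 rose in Old over Adult mice (6 without O2, 3 without O2 and O5), led by Prtn3 (log2 6.72 ± 0.95 SE, edgeR adjusted p = 0.00330) and Mpo (6.41 ± 1.25, adjusted p = 0.0153, and 4.44 without O2), with summed CPM of 2.84 to 7.20, 20.7 to 274 and 43.5 to 204 in the 3 groups. Of 6 B cell genes, 3 rose (Ms4a1 by 3.11 and Cd79a by 2.56 on the log2 scale, edgeR adjusted p = 0.0310 and 0.0437), and 0 of 6 passed without O2 (2 without O2 and O5). Csf1r, Cd68 and Adgre1 are also made by monocytes or by macrophages derived from them, and the part of these cells in the members' values was not tested.

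Lymphocyte markers also set O2 apart. The summed CPM of 8 T and NK cell genes was 173 in O2, against 1.95 to 25.7 in the other 14 mice. Most of the sum in O2 was Cd4 (116 CPM). Cd3d, Cd3e and Cd3g were also highest in O2, at 6.64, 7.34 and 15.0 CPM. No gene of this list or of the dendritic cell and cholangiocyte lists passed in Old over Adult (Cd4 at 4.79, Xcr1 at 2.96 and Krt7 at 1.42 on the log2 scale, with Cd4 at -0.51 and Xcr1 at -0.31 without O2). Among the cells that house Kupffer cells, 0 of 9 sinusoidal endothelial genes and 1 of 7 stellate genes (Des, 0.85 ± 0.22 SE, edgeR adjusted p = 0.0346) passed in Old over Adult, and Des did not without O2 (adjusted p = 0.0532 in edgeR). Lyve1 had the largest absolute fold change of the endothelial list (0.74 on the log2 scale, edgeR adjusted p = 0.247) but went against most of it. Only 3 of the 9 endothelial fold changes were positive, where 56.8% of all genes had positive ones. The median of the endothelial list was -0.31 on the log2 scale, against 0.07 over all genes. Of 8 hepatocyte genes, 1 fell, Cyp2e1 (-1.50 ± 0.31 SE, edgeR adjusted p = 0.0184). In PDX over Old mice, 0 genes of any of these lists passed.

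**Figure D5:**
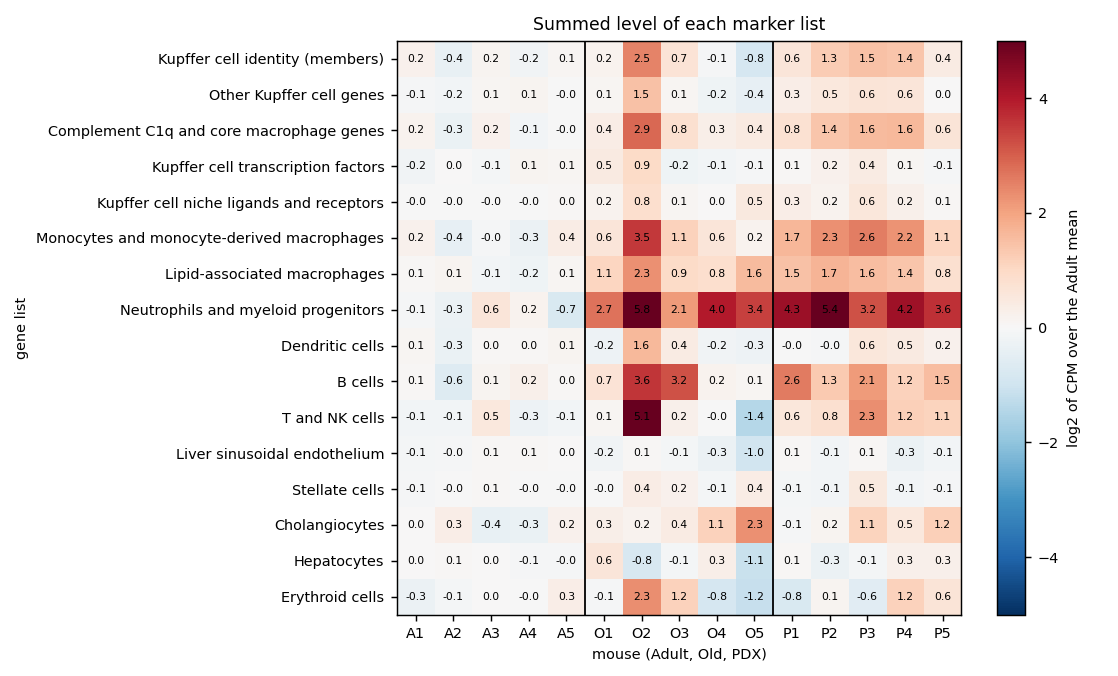
Log2 of the summed CPM of each gene list over the mean of the Adult mice, in each of the 15 livers, with the value in each cell. The Kupffer cell identity genes stand at 2.5 in O2 and -0.8 in O5 and between 0.4 and 1.5 in the PDX mice, and monocyte and neutrophil lists are above the Adult mean in all aged mice.

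The labels give the number of positive frailty criteria and a frailty index for each mouse, and 16 relations of these with the log2 CPM of the members were computed over the 10 aged mice. Old and PDX mice were pooled without a term for treatment, so frailty and treatment were not separated. For the number of criteria, Pearson's r ranged from -0.349 (Cd5l) to -0.0104 (Csf1r) and Spearman's rho from -0.536 (Cd68) to -0.0810 (Marco), and no permutation test passed 0.05 after adjustment over 8 members (adjusted p from 0.839 to 0.977 for r and from 0.480 to 0.824 for rho, permutation test). Without P1 and O1, the 2 mice farthest from the median number, r lay between -0.475 and -0.731 and rho between -0.504 and -0.756 in 8 mice (permutation test, lowest adjusted p = 0.223 for r and 0.0773 for rho).

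With the frailty index, r was -0.766 for Clec4f, -0.762 for Cd5l, -0.653 for Timd4 and -0.645 for Adgre1 (permutation p = 0.0223, 0.0255, 0.0563 and 0.0485), and 0.0685 for Marco. Adjusted over the 8 members, the lowest permutation p was 0.102, and over all 16 relations 0.204, and rho was between -0.571 and 0.122 (lowest adjusted p = 0.401, permutation test). Without O4 and O5, the 2 mice with the highest index, r lay between -0.249 and 0.211 (permutation test, adjusted p = 0.951 for all members). P1 (index 0.06) lay as far from the median as O4 (0.33) but was kept. The part of O5 alone in these relations was not tested. A relation with frailty could thus not be shown in these 10 mice.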

How the data were processed

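The authors aligned reads of poly(A)-selected, strand-specific libraries with STAR (2.6.0c) to mm10, a build of the mouse genome, and counted pairs with featureCounts (Subread 1.6.2) over the genes of Ensembl 100, keeping pairs that aligned once, properly and on the sense strand, without mitochondrial genes. The deposited table holds these counts without normalization. A table of log2-scale values, also deposited, comes from the variance stabilizing transformation of DESeq2 (1.23.10), used here only as an alternative. Every column was matched to a mouse by its title. Of 55450 gene IDs, 55190 received a symbol. Coordinates are those of GENCODE M21 (GRCm38, the assembly of mm10), and promoters are from RefSeq.

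Genes of low count were removed with filterByExpr, set to a minimum count of 10 and a total of 15. The rest were scaled with TMM and fitted with the quasi-likelihood test of edgeR (4.0.16, R 4.3.3), with 1 coefficient per group and all 15 mice. Adjusted p-values are Benjamini-Hochberg over all 15808 genes tested, with a threshold of 0.05. CPM and fold changes use TMM-scaled library sizes, log2 CPM a prior count of 2, ratios counts plus 0.5, and values per kb the union of the exons of a gene. The study used the Wald test of DESeq2, run here (1.42.0) as an alternative, in which an adjusted p left undefined stayed so. For ratios the exact permutation test (two-sided) was used, and for correlations with frailty measures a permutation test of 100000 resamples (Python 3.11.15, scipy 1.17.1). Fits were tested on simulated data. Alternatives were limma (3.58.1) on the VST values or with sample quality weights, other scalings and filters, thinned counts, fits of the 10 mice compared, a replicate block, fits without each mouse and without O2 and O5. DESeq2 without O2, and without O2 and O5, ratios to Cd68 without these mice, and the frailty index without O4 and O5 were added after the data were seen.

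The members, the gene lists and the tests were chosen with earlier results of these data known. From each list besides the members, the genes named are those with the largest rises and falls (at most 2 each) past the threshold in Old over Adult or, where none passed, the 1 with the largest absolute fold change, and for each member the 3 genes most like it. Il18bp, Lgmn, Spi1, Nr1h3, Id3, Spic, Hmox1 and Cd163 are named beyond this rule, chosen after their values were seen. One gene that the rule names is not reported here. Same-numbered mice are different animals, and their deviations from the group means did not correlate in every pair. Euthanasia batches were not analysed here, since no source used here gives them per mouse.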

Additional observations from a re-analysis of the deposited data

Results flagged for a closer look

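Values were tested for a mouse that stood apart from the other 4 of its group, by the gap to its nearest neighbour over the range of the group. This was done for the 8 members, 5 ratios and 15 other lists in 3 groups, 84 groups in all, of which 22 held such a mouse. About 1 in 20 groups of normally distributed values would hold one by chance. Whether the values here were so distributed was not tested, and most members moved together, so the groups are not independent. O2 accounted for 13 of the 22.

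Among the members, O2 stood above the other Old mice in Clec4f (1061 CPM), Vsig4 (576 CPM), Timd4 (100.3 CPM), Adgre1 (215 CPM), Csf1r (649 CPM) and Cd68 (120.3 CPM), but not in Cd5l or Marco. Its log2 ratio of Timd4 to Adgre1 (-1.10) was also apart from the group. In the same library the summed CPM was 1185 for the other Kupffer cell genes, 4209 for the complement C1q and core macrophage genes, 1124 for monocyte genes, 274 for neutrophil genes, 35.0 for dendritic cell genes and 173 for T and NK cell genes (116 of it Cd4). The part of these cell types in the members' values in O2 was not tested.

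P4 stood below the other PDX mice in the log2 ratio of Timd4 (-4.00) and of Marco (-2.85) to Adgre1. In P3 the summed CPM of T and NK cell genes (25.7) and of stellate cell genes (498) was above the other PDX mice. O5 stood above the other Old mice in cholangiocyte genes (41.8). In the Adult group, A2 was low in dendritic cell genes (8.88) and B cell genes (7.15), A3 high in T and NK cell genes (7.39) and A5 high in niche genes (248).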

How the results depend on the processing

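The number of members past the threshold depended on the mice in the fit and on the test. In Old over Adult mice it was 0 in edgeR with all mice, 1 (Cd68) with DESeq2's Wald test, with its size factors in edgeR, with thinned counts, and with DESeq2 without O2 or without O2 and O5, and from 0 to 2 when each mouse was left out in turn (2, Cd68 and Vsig4, without O5, and 1, Cd68, without O1, O3 or O4). Over all genes, 777 of 15808 were called higher with these size factors and 712 of 15404 with thinned counts. DESeq2 called 1054 of 18607 genes higher without O2 and 1161 of 17966 without O2 and O5. Without O1, O3 and O4, edgeR called 1232 of 16116, 1375 of 16087 and 1194 of 16042 genes higher. In PDX over Adult mice the number of members was 0 in edgeR with all mice, 2 with DESeq2, 7 with only the 10 mice compared, with sample quality weights, without O2 and O5 and with DESeq2 without both, 6 with DESeq2 without O2, and from 0 to 5 when each mouse was left out (5 without O2, 2 without O5). Over all genes, 2732 of 15808 were called higher with quality weights. DESeq2 called 1765 of 19721 genes higher without O2 and 2650 of 20172 without O2 and O5. EdgeR called 2465 of 15297 higher with only the 10 mice compared and 2349 of 16275 without O2 and O5. It called 1240 of 15978 higher without O2 and 857 of 16027 without O5. In PDX over Old mice the number of members was 0 under all 28 alternatives. Of the ratios to Adgre1, 0 passed in any comparison, and with Cd68 as the denominator 2 passed in Old against Adult, 1 (Cd5l, 0.89 on the log2 scale) in PDX against Old and 2 in PDX against Adult. With Cd68 and without O2 these were 3, 0 and 2, and without O2 and O5 0 in each. In PDX against Adult mice the ratios to Cd68 and their exact p-values stayed the same without O2 and O5, and only the adjustment changed. The cause of the other changes was not tested.

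Fold changes turned sign as follows (log2). In Old over Adult mice, Clec4f was -0.16 with DESeq2 without O2 and from -0.16 (without O2) to 1.11 when each mouse was left out. Timd4 was -0.61 with quality weights, -0.082 with the VST values, -0.38 without O2 and O5, -0.39 and -0.70 with DESeq2 without both and without O2, and from -0.69 (without O2) to 1.35 when each mouse was left out. In PDX over Old mice, quality weights gave 0.76 for Clec4f, 0.59 for Vsig4, 0.68 for Timd4, 0.85 for Csf1r and 0.67 for Cd68. The VST values gave 0.54, 0.094, 0.26, 0.34 and 0.051 in that order, the fit without O2 and O5 0.63, 0.55, 0.81, 0.81 and 0.60, DESeq2 without both 0.62, 0.54, 0.80, 0.80 and 0.59, and DESeq2 without O2 0.93, 0.75, 1.11, 0.91 and 0.61. With each mouse left out, the ranges were -0.35 to 0.93 for Clec4f, -0.97 to 0.74 for Vsig4, -1.20 to 1.10 for Timd4, -0.39 to 0.91 for Csf1r and -0.56 to 0.61 for Cd68, with the highest value always without O2. Clec4f was also positive without P1 (0.011) and without P5 (0.041). Timd4 in PDX over Adult ranged from -0.14 (without P3) to 0.60.

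The replicate block on the number in the mouse's name called 0 members in every comparison and gave -0.065 for Timd4 in Old over Adult and 0.37 for Clec4f, 0.11 for Timd4, 0.24 for Csf1r and 0.0077 for Cd68 in PDX over Old. Same-numbered mice are different animals, and the block changed no call.

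Log2 ratios turned sign too, all of them ratios that did not pass with Adgre1. With Cd68 as the denominator, Vsig4 was -0.47 in Old against Adult, Clec4f 0.49, Vsig4 0.041, Timd4 0.26 and Marco 0.75 in PDX against Old, and Cd5l 0.051 in PDX against Adult. With Csf1r, Clec4f was 0.20 and Marco 0.46 in PDX against Old and Cd5l 0.34 in PDX against Adult. Without O2 and O5, Vsig4 was -0.0060 and Cd5l 0.15 in Old against Adult, and Cd5l -0.15 and Marco 0.39 in PDX against Old. With each mouse left out, Cd5l ranged from -0.18 to 0.13 and Marco from -0.0244 to 1.39 in Old against Adult, Cd5l from -0.14 to 0.23 and Marco from -0.61 to 0.80 in PDX against Old, and Cd5l from -0.0904 to 0.15 in PDX against Adult.

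The exact test of 5 against 5 mice allows no p under 0.00794. Counting error was small for all members.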
